A study of Canis lupus familiaris with 37 samples.

Results

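By their source name, the canine cell lines OSW and CL-1 both came from a T-cell lymphoma of a dog, a cancer of T lymphocytes. The comparison describes how far these lines differed. All samples titled OSW (4) and all samples titled CL-1 (2) were taken, 6 of the 37 samples of the series. The other 31 samples were 10 of the related B-cell lines CLBL-1 and CLBL-1M, 1 of the B-cell line GL-1, 12 B-cell lymphomas, 1 T-cell lymphoma, 3 intestinal lymphomas and 4 non-neoplastic lymph nodes that served as controls. The labels name no treatment, and both lines were grown in the same medium, RPMI with fetal bovine serum and antibiotics. Poly-A RNA was sequenced, and the reads that fell on each Ensembl gene were counted. The labels do not agree on the lineage of CL-1: the flow cytometry field of both CL-1 samples names a B-cell origin, whereas that of the OSW samples names a T-cell origin. Lineage was not checked against defining markers such as the T-cell receptor genes. The count files hold Ensembl identifiers (ENSCAFG numbers) without gene symbols, and none of them matched the reference table used here. The study describes its list of genes that differed from controls as giving symbols, but that list was not used to pair them. It groups both lines as derived from T cells. Against controls, it reports SYK and BTK, of the B-cell receptor pathway, as lower in both OSW and CL-1. GSK3B is reported as slightly higher in OSW, and PIK3CD as lower in CL-1. Genes are therefore given by identifier, with the function under which the study's own annotation tables list them.

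T lymphocytes recognise peptides that other cells present on molecules of the major histocompatibility complex (MHC). MHC class I molecules occur on nearly all nucleated cells, whereas MHC class II molecules mark B cells, dendritic cells and macrophages, and in dogs also occur on T cells. Signalling from the antigen receptor, through kinases, exchange factors for Ras-type GTPases and NF-kappa B, drives the activation and proliferation of lymphocytes.

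The 6 libraries held between 2810510 and 3225802 counts on genes, so that 3 counts, taken as the lowest visible level, corresponded to 0.93 to 1.07 CPM (the counts of a gene scaled to the same library total). Of the reads, 68.0 to 71.3% fell outside genes in the OSW libraries and 75.6 to 76.6% in the CL-1 libraries, a difference whose part in the results was not tested. Between 15794 and 16137 genes had at least 1 count in a library. No library was a copy of another, since the chi-square statistic per degree of freedom was 2.54 between the CL-1 libraries and 4.27 to 13.3 between OSW libraries. The root mean square difference in log2 CPM over the 15162 genes tested was 0.35 between the CL-1 libraries, 0.43 to 0.59 between OSW libraries and 1.84 to 1.94 between libraries of different lines. The distance between the mean profiles of OSW and CL-1 was 1.86. As values without a test, OSW lay at 1.85 from CLBL-1 and 1.87 from CLBL-1M, and CL-1 at 1.83 and 1.84. The distance between OSW and CL-1 was thus about as large as that of each from CLBL-1 and CLBL-1M. The same model called 1276 genes between OSW and CLBL-1 (8.42%) and 883 between CL-1 and CLBL-1 (5.82%), comparisons that hold 5 CLBL-1 libraries and share libraries with the one described here. Nothing in the labels says that the libraries of a line came from separate cultures, so that the p-values cannot be read as covering the spread between cultures. The model estimated the spread of each gene within the groups of all 37 samples, lymphomas and controls included. It was thus not set by the OSW and CL-1 libraries alone.

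Of the 15162 genes tested, 341 were higher in OSW (2.25%) and 278 were higher in CL-1 (1.83%), in all 619 (4.08%), by edgeR's quasi-likelihood test at a threshold of 1e-05 on the p-value after Benjamini-Hochberg adjustment. The CPM of the lines did not overlap for any of these 619 genes. With so few libraries, levels that do not overlap were common: 28.6% of all genes tested had every OSW library above both CL-1 libraries, and 33.5% had the reverse. At an adjusted p-value of 0.05, 4675 genes (30.8%) passed, with 17.1% of all genes higher in OSW and 13.7% higher in CL-1. The called differences were large, with a median log2 fold change (OSW over CL-1) of 6.62 for the genes higher in OSW and -4.77 for those higher in CL-1, and none was below 1 in size. The median over all genes tested was 0.01, and 58.5% of them differed by at most 1 on the log2 scale. Genes higher in OSW made up 6.71 to 7.57% of all counts in the OSW libraries and 0.51 to 0.53% in those of CL-1. Genes higher in CL-1 made up 6.75 and 6.91% of the counts of the CL-1 libraries and 0.65 to 0.70% in OSW. These counts rest on few libraries: 215 and 194 genes were called with 1 CL-1 library left out, and 442 to 476 with 1 OSW library left out.

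**Figure D1:**
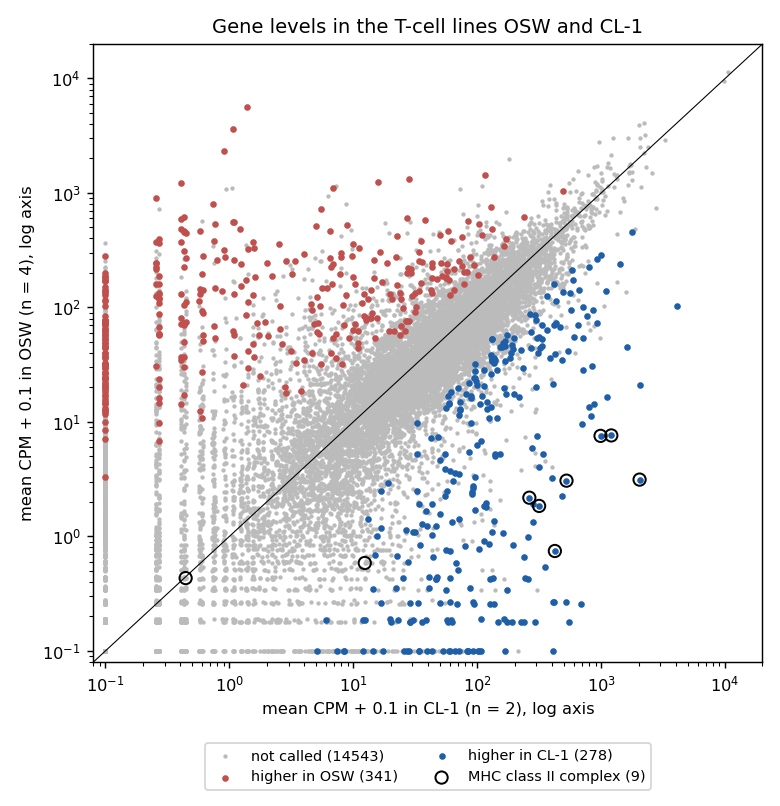
Mean CPM of each of the 15162 genes tested in CL-1 (horizontal axis, 2 libraries) and OSW (vertical axis, 4 libraries), both on log axes after adding 0.1, with the line of equal levels; red points were called higher in OSW, blue points higher in CL-1, and circles mark the 9 genes of the MHC class II protein complex. The called genes reach the edges of the plot, where a line has no counts, and 7 of the 9 circles lie far below the line of equal levels.

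The group with the largest share of called members was the MHC class II protein complex, whose products present peptides to helper T cells. Of its 9 genes, 7 were higher in CL-1 and none was higher in OSW, with a median log2 fold change of -7.18 over the 9 genes (-7.24 when the gene under 3 counts in both lines was left out), against 1.83% of all genes tested and a median of 0.01. The study's lists hold only genes that differed from the controls in some lymphoma or cell line group of this series, OSW and CL-1 among those groups. They are thus not independent evidence of a direction. Of the 1419 identifiers readable in them 10.6% were called, 5.71% higher in OSW and 4.93% higher in CL-1. Summed over the 9 genes, the CL-1 libraries had 5715 and 5830 CPM and the OSW libraries 32.4, 25.3, 26.8 and 20.6 CPM. CL-1 lay below the controls, with 8779 to 11556 CPM, and the CLBL-1 and CLBL-1M libraries, with 7428 to 10958 CPM, and within the 2762 to 12232 CPM of the B-cell lymphomas. Among the other samples, GL-1 came nearest to OSW with 95.6 CPM, while the T-cell lymphoma had 2501 CPM and the intestinal lymphomas 815 to 2164 CPM. In these tissue samples, fewer cells with the transcripts and less of the transcripts per cell cannot be told apart.

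ENSCAFG00000000812 had counts of 6182 and 6308 in the CL-1 libraries and of 9, 14, 8 and 5 in the OSW libraries. Its level was 2040 ± 119 CPM (SD, n = 2) in CL-1 and 3.03 ± 1.42 CPM (SD, n = 4) in OSW, a log2 fold change of -9.25 ± 0.70 (SE) with an adjusted p-value of 5.61e-12 in edgeR. For ENSCAFG00000000814, the counts were 1179 and 1420 in CL-1 and 6, 0, 2 and 0 in OSW, with a log2 fold change of -9.10 ± 0.86 (adjusted p-value 6.49e-10). No OSW library had more than 14 reads of either gene, and ENSCAFG00000000814 had none in OSW 2 and OSW 4. ENSCAFG00000000806 was counted 3356 and 4062 times in CL-1 and 27, 21, 18 and 25 times in OSW, a log2 fold change of -7.18 ± 0.46 (adjusted p-value 8.84e-14). ENSCAFG00000000803 had 2818 and 3249 counts in CL-1 and 32, 15, 31 and 12 in OSW, a log2 fold change of -6.92 ± 0.49 (adjusted p-value 1.05e-12). Every OSW library still had reads of both genes, all far under the counts of CL-1. ENSCAFG00000018101, ENSCAFG00000000848 and ENSCAFG00000032102 followed, with 1421 and 1810, 754 and 861 and 890 and 1048 counts in the CL-1 libraries and between 3 and 10 counts in each OSW library. Their log2 fold changes were -7.31 ± 0.42, -6.82 ± 0.49 and -7.33 ± 0.41, with adjusted p-values of 8.41e-15, 1.31e-12 and 7.69e-15. These 7 genes passed in each of the alternative fits, including every one that left out a library.

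The remaining members were low in both lines. ENSCAFG00000000819 had 29 and 47 counts in CL-1 and 3, 1, 0 and 2 in OSW, a log2 fold change of -4.38 ± 1.5 that did not pass (adjusted p-value 0.024 in edgeR). ENSCAFG00000000896 had 2 and 0 counts in CL-1 and 0, 1, 1 and 2 in OSW. Controls held 416 to 505 CPM of the first and 225 to 283 CPM of the second, and the CLBL libraries 125 to 263 and 78.2 to 172 CPM. CL-1 lay below every control and CLBL library in both genes. The same was true of ENSCAFG00000000803, ENSCAFG00000000806, ENSCAFG00000018101 and ENSCAFG00000032102 among the 7 called members. For ENSCAFG00000018101, CL-1 had 488 and 561 CPM, where the lowest control held 1123 CPM and the lowest CLBL library 1246 CPM.

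**Figure D2:**
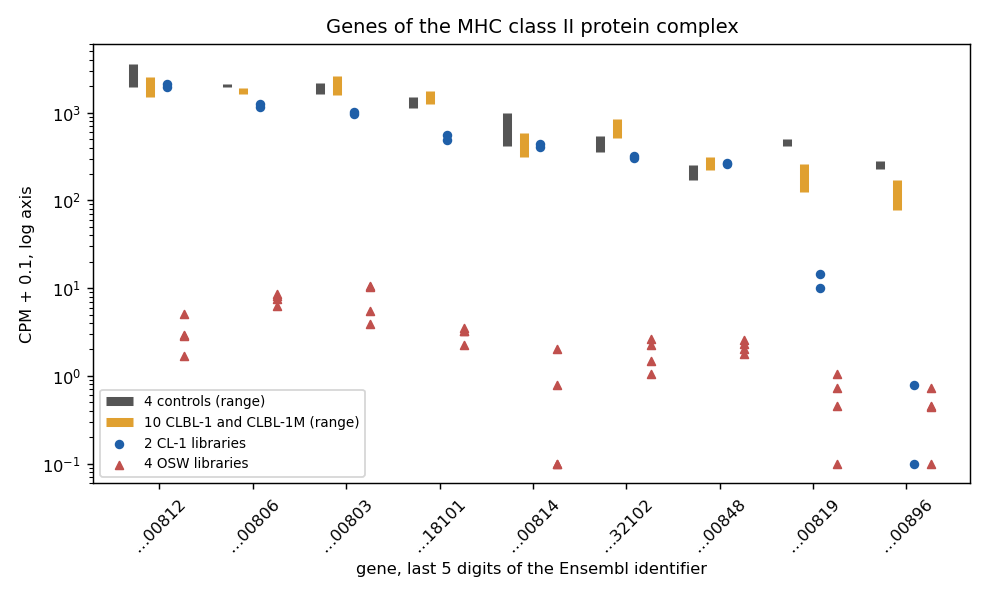
CPM plus 0.1 on a log axis of the 9 genes of the MHC class II protein complex, ordered by their level in CL-1; bars are the range of the 4 controls (grey) and of the 10 CLBL-1 and CLBL-1M libraries (orange), circles the 2 CL-1 and triangles the 4 OSW libraries. In the 7 leftmost genes CL-1 lies far above OSW, which is near or under 10 CPM, and in some of them CL-1 lies below both bars. In the 2 rightmost genes both lines fall below the bars.

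The other 3 genes of the wider MHC protein complex list, which are not in the class II list, were not called. ENSCAFG00000000500 had 568 and 688 counts in CL-1 and 732, 709, 637 and 876 in OSW, a log2 fold change of 0.40 ± 0.43 (adjusted p-value 0.54 in edgeR). The values were 0.61 ± 0.35 for ENSCAFG00000013633 (adjusted p-value 0.19) and 0.95 ± 0.32 for ENSCAFG00000032222 (adjusted p-value 0.02), and both lines lay below all 4 controls in each of these genes. Of 20 genes listed for antigen processing and presentation of peptide antigen, 5 were higher in CL-1 and none in OSW. All 5 were members of the class II complex. The list's median log2 fold change was -0.33, or -0.85 with genes absent from a line set at their bound and those under 3 counts in both lines left out.

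Genes of B-cell receptor signalling, which relays antigen binding from the surface of B cells, differed in both directions. Of 20 genes, 2 were higher in OSW and 1 in CL-1 (15%, against 10.6% of the identifiers in the study's lists). The median log2 fold change was 2.09 (1.99 with bounds). ENSCAFG00000007034 was counted 254, 215, 219 and 251 times in the OSW libraries and never in CL-1, so that its level in OSW, 77.7 ± 2.9 CPM (SD, n = 4), was at least 75.4-fold higher than the 3 counts taken as the floor of each CL-1 library (adjusted p-value 3.23e-11 in edgeR). The controls held 94.8 to 143 CPM and the CLBL libraries 72.6 to 136 CPM of this gene, which is listed also under lymphocyte apoptosis and B-cell proliferation. CL-1 was thus the line without it. ENSCAFG00000019989, also listed for type I interferon production, had 565, 419, 499 and 431 counts in OSW and 19 and 22 in CL-1, a log2 fold change of 4.69 ± 0.64 (adjusted p-value 9.08e-07). ENSCAFG00000014463 went the other way, with 89 and 122 counts in CL-1 and 2, 3, 1 and 3 in OSW and a log2 fold change of -5.30 ± 0.48 (adjusted p-value 2.66e-10), and both lines lay below its control range of 287 to 460 CPM. Another 14 members had levels that did not overlap without reaching the threshold, 8 of them higher in OSW and 6 in CL-1, where such levels were seen in 28.6 and 33.5% of all genes tested, for example ENSCAFG00000005873 with 540, 410, 396 and 410 counts in OSW, 16 and 21 in CL-1 and an adjusted p-value of 1.32e-05. Left with 1 CL-1 library, ENSCAFG00000019989 no longer passed (adjusted p-values up to 0.000314).

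Genes of T-cell function and of the surface proteins that mark blood cell lineages were called in both directions. In the partly readable list of T-cell activation, 2 of 30 genes were higher in OSW and 2 in CL-1, and in that of T-cell differentiation 1 of 20 was higher in each line. These shares, 13.3 and 10%, were near the 10.6% of all identifiers readable in the study's lists. In hematopoietic cell lineage, a list made up mainly of surface receptors and cytokines, 4 of 25 readable genes were higher in OSW and 2 in CL-1 (24%). Each of the study's tables shows at most 20 identifiers of a long list, so that these are counts over the readable members and not over the full term.

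Members higher in OSW included genes that CL-1 lacked or nearly lacked. ENSCAFG00000019798 of the lineage list, also listed for leukocyte migration, had 4010, 2781, 3490 and 3185 counts in OSW and 18 and 24 in CL-1. Its 1114 ± 137 CPM (SD, n = 4) in OSW stood above the 93.1 to 184 CPM of the controls, and its log2 fold change was 7.47 ± 1.07 (adjusted p-value 2e-06 in edgeR). ENSCAFG00000002065, a tyrosine kinase of the same list, had 1717, 1234, 1696 and 1199 counts in OSW and 0 and 2 in CL-1, a ratio of 1487 times (95% counting interval 411 to 12280) with an adjusted p-value of 1.84e-10. OSW again exceeded every control, whose levels were 13.2 to 38.2 CPM. By contrast, ENSCAFG00000018752, listed for blood cell lineage and T-cell activation, was present in OSW below the level of all controls. It was counted 60, 74, 68 and 90 times in OSW and never in CL-1, at least 23.5-fold above the floor (adjusted p-value 8.66e-06). ENSCAFG00000006349, listed as a positive regulator of T-cell activation, was counted 138, 312, 159 and 262 times in OSW and not in CL-1, at least 70.8-fold above the floor (adjusted p-value 3.07e-07). Its counts in OSW 2 and OSW 4 were above those in OSW 1 and OSW 3. ENSCAFG00000017447, of the alpha-beta T-cell activation list, also varied between the OSW libraries, with counts of 1176, 503, 917 and 759 against 61 and 73 in CL-1 and a log2 fold change of 3.79 ± 0.50 (adjusted p-value 5.39e-07).

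The members described here as higher in CL-1 had few reads in OSW. ENSCAFG00000014175, of the lineage and cell adhesion lists, had 406 and 398 counts in CL-1 and 3, 2, 5 and 2 in OSW, a log2 fold change of -6.85 ± 0.94 (adjusted p-value 9.3e-07 in edgeR). ENSCAFG00000011630, of the lineage list, had 177 and 191 counts in CL-1 and 1, 2, 0 and 1 in OSW, a log2 fold change of -7.19 ± 0.80 (adjusted p-value 2.08e-08). Both stood in CL-1 below all 4 controls, which held 524 to 766 and 628 to 1126 CPM. ENSCAFG00000030400, listed for T-cell differentiation and as a positive regulator of T-cell activation, had 396 and 446 counts in CL-1 and 2, 6, 3 and 4 in OSW, with a log2 fold change of -6.59 ± 0.93 (adjusted p-value 1.43e-06). Here CL-1, at 137 ± 1.54 CPM (SD, n = 2), exceeded the 6.52 to 11.7 CPM of the controls, as did the CLBL libraries at 53 to 120 CPM. Several of these calls were lost in fits that left out a library, with the direction unchanged. ENSCAFG00000019798, ENSCAFG00000006349 and ENSCAFG00000017447 did not pass without either CL-1 library. Over the 6 fits their log2 fold changes ran from 7.34 to 7.62, 10.5 to 10.9 and 3.62 to 3.94. ENSCAFG00000014175 did not pass in 4 of the 6 fits (adjusted p-values up to 1.32e-05 in edgeR). ENSCAFG00000018752 and ENSCAFG00000030400 passed in none of the 6, with log2 fold changes of 9.05 to 9.26 and -6.95 to -6.36. For ENSCAFG00000030400 the adjusted p-values were up to 2.09e-05 in edgeR.

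Genes of innate and inflammatory function were called more in some lists than in others, as counts without a test. Myeloid leukocyte activation had 5 of 26 readable genes higher in OSW and none in CL-1, regulation of interferon-gamma production 3 of 20 and none, and phagosome 5 of 20 and 1, where 2.25 and 1.83% of all genes tested and 5.71 and 4.93% of the identifiers in the study's lists were called. The lists share genes, so their counts are not separate. ENSCAFG00000002142, listed under interferon-gamma production, myeloid activation and inflammation, had 2820, 4221, 3306 and 4276 counts in OSW and 0 and 2 in CL-1, a ratio of 3719 times (95% counting interval 1029 to 30713) with an adjusted p-value of 3.79e-06 in edgeR. Neither the controls (2.61 to 4.08 CPM) nor the CLBL libraries (0 to 1.51 CPM) came near its 1219 ± 267 CPM (SD, n = 4) in OSW. ENSCAFG00000018703, listed for interferon-gamma and tumor necrosis factor production, had 1261, 905, 1070 and 1250 counts in OSW and 0 and 1 in CL-1 (adjusted p-value 3.38e-16), and ENSCAFG00000011650, listed for B-cell proliferation and cytokine synthesis, had 1829, 1488, 1644 and 1767 and 4 and 2 (log2 fold change 9.22 ± 0.45, adjusted p-value 2.73e-16). For both, OSW was within the levels of the other lymphoid samples and CL-1 was the line that lacked them, since the lowest control held 354 and 230 CPM. Every OSW library, at 529 to 580 CPM of ENSCAFG00000011650, was nevertheless above all controls (230 to 374 CPM) and below the CLBL libraries (690 to 953 CPM). None of 15 innate immunity genes and none of 40 readable genes of the defense against viruses was called in either direction by edgeR, although 5 and 13 were higher in OSW and 1 and 5 in CL-1 at an adjusted p-value of 0.05, 7 and 22 had an unadjusted p-value under 0.05, and DESeq2 called 0 and 1. Without either CL-1 library, ENSCAFG00000002142 did not pass (adjusted p-values up to 0.000945).

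Genes of cytokine signalling, chemotaxis and adhesion were called in both directions. Of the cytokine-cytokine receptor list 2 of 24 readable genes were higher in each line, and of leukocyte chemotaxis 3 of 20 were higher in OSW and 2 in CL-1, in all 16.7 and 25% against 10.6% of the identifiers in the study's lists. ENSCAFG00000012439, of both lists and of B-cell activation, had 759 and 1048 counts in CL-1 and 1, 0, 0 and 0 in OSW, a ratio of 3552 times (95% counting interval 637 to 140391) with an adjusted p-value of 3.82e-12 in edgeR. ENSCAFG00000032590, of the cytokine receptor list, showed the reverse with 292, 159, 217 and 244 counts in OSW and 2 and 0 in CL-1 (adjusted p-value 2e-06). Thus each line lacked a gene of this list that the other carried. The cell adhesion list, which includes MHC genes, had 5 of 26 readable genes higher in CL-1 and 1 in OSW. ENSCAFG00000031652, of that list, was counted 497 and 538 times in CL-1 and never in OSW, at least 158-fold above the floor (adjusted p-value 1.32e-06), and was absent also from the CLBL libraries. ENSCAFG00000003821, listed for adhesion and phagosome, had 945, 1267, 1095 and 1253 counts in OSW and 2 and 2 in CL-1, a log2 fold change of 9.23 ± 1.01 (adjusted p-value 1.61e-08). ENSCAFG00000030300, listed for interleukin-12 production, an inflammatory cytokine that directs T cells, had 5791 and 6842 counts in CL-1 and 59, 71, 39 and 85 in OSW, a log2 fold change of -6.46 ± 1.00 (adjusted p-value 6.06e-06), and its level in CL-1 stood above the 325 to 1025 CPM of the controls. With a library left out, ENSCAFG00000030300 did not pass in any of 6 fits (adjusted p-values up to 7.54e-05), and without a CL-1 library neither did ENSCAFG00000032590 (up to 0.000777) or ENSCAFG00000003821 (up to 1.99e-05). ENSCAFG00000031652 was lost without CL-1 2 (1.03e-05).

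**Figure D3:**
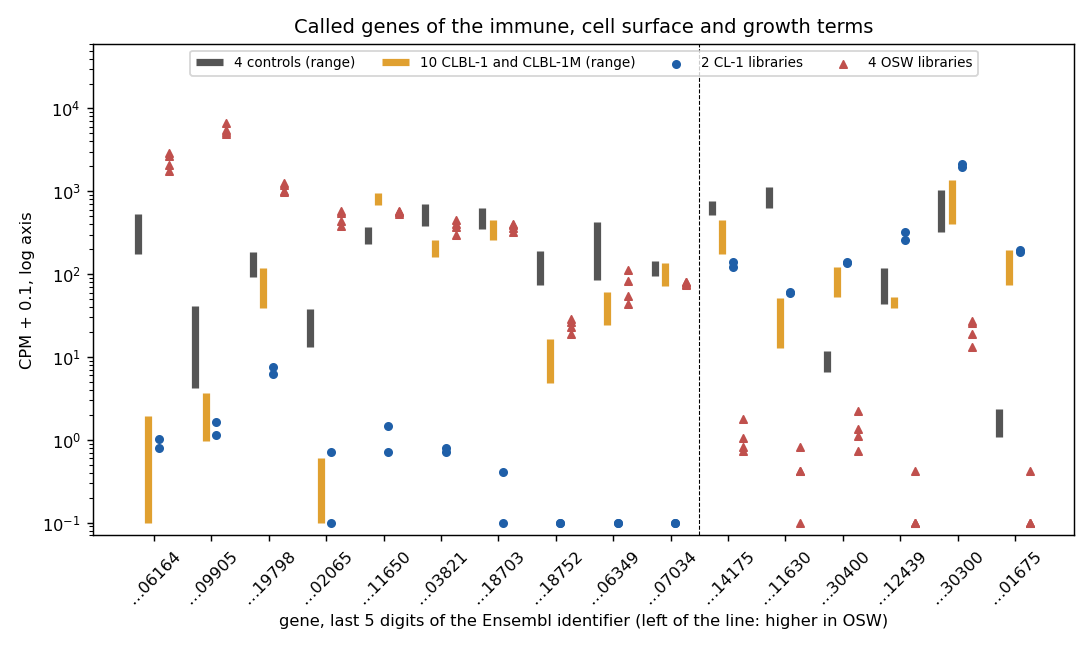
CPM plus 0.1 on a log axis of 16 called genes named in the text, 10 higher in OSW (left of the dashed line) and 6 higher in CL-1 (right); bars are the range of the 4 controls (grey) and the 10 CLBL-1 and CLBL-1M libraries (orange), circles the 2 CL-1 and triangles the 4 OSW libraries. The line with the lower level sits at or under 10 CPM, except OSW in ENSCAFG00000030300, where its mean was 21 CPM.

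A pair of genes listed for tissue structure and blood vessels set OSW apart from every other group. ENSCAFG00000009905, listed for extracellular structure and epithelial cell migration, had 16423, 18687, 14630 and 17358 counts in OSW and 3 and 5 in CL-1, a log2 fold change of 12.16 ± 1.72 (adjusted p-value 1.54e-06 in edgeR). Its 5582 ± 745 CPM (SD, n = 4) in OSW compared with 4.11 to 41.3 CPM in the controls and at most 14 CPM in a B-cell lymphoma. ENSCAFG00000006164, listed for angiogenesis, had 6510, 4917, 8458 and 8479 counts in OSW and 2 and 3 in CL-1, a log2 fold change of 11.54 ± 1.64 (adjusted p-value 1.75e-06), with 174 to 539 CPM in the controls. Both stood in every OSW library above every control, and neither passed with 1 CL-1 library left out (adjusted p-values up to 0.0006 and 0.00059).

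Signalling enzymes were called in both lines. Of 20 readable tyrosine-protein kinases, 2 were higher in OSW and 1 in CL-1 (15%, against 10.6% of the identifiers in the study's lists). ENSCAFG00000015159 had 464, 458, 395 and 450 counts in OSW and 3 and 1 in CL-1, a log2 fold change of 7.85 ± 0.74 (adjusted p-value 6.35e-10 in edgeR), and ENSCAFG00000016011 had 149 and 196 counts in CL-1 and 2, 1, 3 and 2 in OSW, a log2 fold change of -6.18 ± 0.82 (adjusted p-value 5.77e-07, and 1.38e-05 without CL-1 2). The lower line was in each case below all controls. Exchange factors for Ras-type GTPases had 5 of 20 readable genes higher in OSW and 1 in CL-1, and NF-kappa B signalling 3 of 20 and 2 (30 and 25%). FLT3 (ENSCAFG00000006716), a receptor kinase of early blood cells, had 1, 7, 4 and 7 counts in OSW and 2 and 4 in CL-1 and did not differ detectably (log2 fold change 0.82 ± 0.82, adjusted p-value 0.50).

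Genes of DNA replication and chromosome segregation act in dividing cells. Of 16 genes of DNA replication initiation, 1 was higher in CL-1 and none in OSW, and the median log2 fold change was -0.23. The share was 6.25%, against 4.08% of all genes tested and 10.6% of the identifiers in the study's lists. In lists this short a count of 0 or 1 is near either background. The called gene, ENSCAFG00000007614, had 381 and 347 counts in CL-1 and 44, 40, 42 and 27 in OSW, a log2 fold change of -3.09 ± 0.45 (adjusted p-value 2.17e-06 in edgeR), and it passed in none of the 6 fits that left out a library (adjusted p-values up to 0.000122). CL-1 was above all samples of the other groups in this gene, of which the highest held 86.3 CPM, and OSW was within or just under the control range of 10 to 22.2 CPM. None of 18 genes of the condensed chromosome kinetochore was called, with a median log2 fold change of 0.20, although 1 was higher in each line at an adjusted p-value of 0.05, 4 had an unadjusted p-value under 0.05 in edgeR, and DESeq2 called 1. ENSCAFG00000005143, of DNA replication initiation, had 1147, 978, 1047 and 1072 counts in OSW and 505 and 463 in CL-1, a log2 fold change of 1.29 ± 0.27 that did not pass (adjusted p-value 0.000397). SHCBP1 (ENSCAFG00000003704), a gene of dividing cells, had 305, 361, 376 and 364 counts in OSW and 409 and 401 in CL-1, a log2 fold change of -0.04 ± 0.38 (adjusted p-value 0.99).

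Regulators of the cell cycle were called in both directions. In the readable part of the G1/S transition, the step that commits a cell to DNA synthesis, 2 of 39 genes were higher in OSW and 3 in CL-1 (12.8%, against 10.6% of the identifiers in the study's lists), among the latter ENSCAFG00000007614 described above. ENSCAFG00000025466 was counted 411, 271, 352 and 334 times in OSW and never in CL-1, at least 110-fold above the floor (adjusted p-value 1.08e-07 in edgeR), and no control exceeded 0.989 CPM. ENSCAFG00000006975 had 787 and 690 counts in CL-1 and 0, 0, 3 and 1 in OSW, a log2 fold change of -9.20 ± 1.08 (adjusted p-value 1.31e-07). ENSCAFG00000001675, listed for the cell cycle and viral carcinogenesis, had 542 and 635 counts in CL-1 and 1, 0, 0 and 0 in OSW (adjusted p-value 1.51e-06). It was at 74.2 to 198 CPM in the CLBL libraries and at most 2.28 CPM in the controls, and both CL-1 libraries were within the range of the CLBL lines. It passed in none of the 6 fits that left out a library (adjusted p-values up to 2.7e-05), and ENSCAFG00000025466 did not pass without either CL-1 library (up to 6.62e-05).

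**Figure D4:**
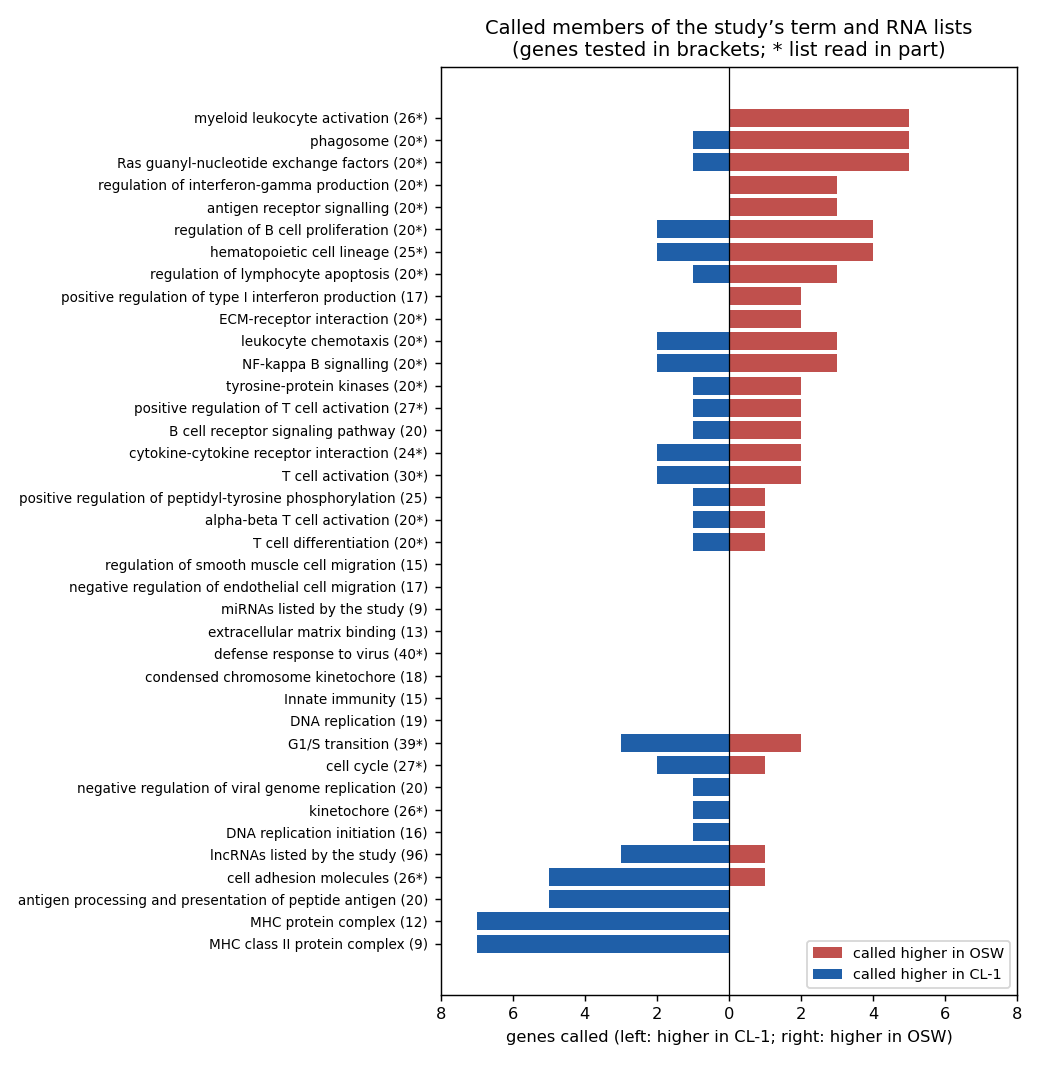
Number of genes called higher in CL-1 (blue, to the left) and in OSW (red, to the right) in each term list of the study and in its lists of long non-coding RNAs and miRNAs; brackets give the genes tested, and an asterisk marks lists of which only part could be read. The MHC class II list has 7 of 9 genes on the CL-1 side, the list of myeloid leukocyte activation 5 of 26 on the OSW side, and 8 lists have no called gene.

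The long non-coding RNAs listed by the study were called at a share near that of all genes and below that of the identifiers in its term lists. The study lists 97 long non-coding RNAs, chosen for differing from the controls in some lymphoma or cell line group of the series. Of these, 96 were tested, of which 1 was higher in OSW and 3 in CL-1. This was 4.17%, against 4.08% of all genes tested and 10.6% of the identifiers in the study's term lists. ENSCAFG00000032828 was counted 287 and 337 times in CL-1 and never in OSW, at least 95.1-fold above the floor (adjusted p-value 2.67e-08 in edgeR), and was also found in every CLBL library at 57 to 134 CPM. ENSCAFG00000038359 was counted 182 and 254 times in CL-1 and never in OSW (adjusted p-value 9.63e-06, but 0.17 by DESeq2's Wald test), and no sample of another group exceeded 0.435 CPM. ENSCAFG00000040955 had 61 and 60 counts in CL-1 and 0, 1, 0 and 0 in OSW (adjusted p-value 5.58e-06), and ENSCAFG00000034067 had 337, 522, 371 and 470 in OSW and 44 and 41 in CL-1 (log2 fold change 3.49 ± 0.37, adjusted p-value 1.17e-08). With a library left out, ENSCAFG00000038359 and ENSCAFG00000040955 passed in none of 6 fits (adjusted p-values up to 0.000273 and 8.69e-05), and ENSCAFG00000034067 did not pass without CL-1 2 (1.58e-05). A further 5 long non-coding RNAs had been singled out by the study, from these same libraries, as high in OSW and nearly absent elsewhere. Their pattern here is therefore not independent evidence. ENSCAFG00000033802, ENSCAFG00000035265, ENSCAFG00000038320, ENSCAFG00000038492 and ENSCAFG00000040754 had mean levels of 18.5, 16.8, 13.6, 17.4 and 30.1 CPM in OSW, no count in CL-1, and no more than 1.3 CPM in any other sample. Their differences did not pass, with adjusted p-values of 0.000452, 0.000118, 0.0035, 0.0024 and 0.000722. None of the 9 miRNA genes the study lists was called by edgeR or DESeq2, with a median log2 fold change of -0.67. In edgeR, 1 was higher in CL-1 at an adjusted p-value of 0.05 and 2 had an unadjusted p-value under 0.05. Poly-A libraries hold few reads of miRNA precursors, and the 9 genes had 0 to 172 counts per library of the lines.

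The largest changes among called genes with a mean of at least 50 CPM in the higher line were examined without regard to annotation. The 12 at the OSW end had 152 to 5582 CPM in OSW and at most 8 counts in the CL-1 libraries together, and 8 of them had none. The 12 at the CL-1 end had 84.8 to 690 CPM in CL-1 and at most 2 counts in the OSW libraries together, and 7 of them had none. Only 3 and 4 of these genes were in the readable lists of the study. ENSCAFG00000001362 was counted 983, 777, 745 and 926 times in OSW and never in CL-1, at least 275-fold above the floor (adjusted p-value 6.6e-09 in edgeR), while no control held more than 20 CPM. ENSCAFG00000001296 had 2903, 2832, 2312 and 2942 counts in OSW and 0 and 1 in CL-1, with 740 CPM in the T-cell lymphoma and 60.1 to 152 CPM in the controls; it did not pass with 1 CL-1 library left out (adjusted p-values up to 5.23e-05). In the other direction, ENSCAFG00000006979 was counted 1237 and 1258 times in CL-1 and never in OSW, at least 382-fold above the floor (adjusted p-value 1.53e-09). ENSCAFG00000009564 had 1482 and 1924 counts in CL-1 and 0, 0, 0 and 1 in OSW (adjusted p-value 8.53e-08). CL-1 exceeded every control in both.

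Presence in one line and absence from the other was counted without a test. A gene was taken as present with at least 10 counts in every library of a line and as absent with 0 counts in every library of the other. By this rule 432 genes were present in OSW and absent from CL-1, 2.13% of the 20255 genes with a count in any of the 6 libraries, and 136 were present in CL-1 and absent from OSW, 0.671%. CL-1 has only 2 libraries in which a gene must be at 0, against 4 for OSW, so the counts are not on an equal footing. Their levels were mostly low, with medians of 17.4 and 9.88 CPM in the line that had them. Of the genes, 81 and 28 were also called by edgeR. The genes present in OSW or in CL-1 only were 256 and 62 when at least 30 counts were required, and the CL-1 number was 249 when 1 count was allowed in OSW libraries. Of the 432 genes absent from CL-1, 332 had a count in every control and 28 in none. Of the 136 genes absent from OSW, 67 had a count in every control and 21 in none. In the CLBL-1 and CLBL-1M libraries, 163 of the 432 and 63 of the 136 were at 0 throughout, and 79 and 16 had at least 10 counts in each. Only 9 of the genes found in OSW and 6 of those found in CL-1 had no count in any of the other 31 libraries. The shares of all genes with these patterns in controls and CLBL libraries were not counted. These numbers therefore describe the genes and do not set them apart from other genes.

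The levels of the called genes were set beside those in the control lymph nodes. Of the 341 genes called higher in OSW, 322 (94.4%) were in CL-1 below all 4 controls, and 144 (42.2%) were in OSW above all 4. Of the 278 genes called higher in CL-1, 203 (73.0%) were in OSW below all 4 controls, and 208 (74.8%) were in CL-1 above all 4. Over all genes tested, CL-1 lay below all controls in 38.2% and above in 31.7%, and OSW below in 33.1% and above in 25.1%. The genes called higher in OSW included 133 (39.0%) in which CL-1 was below all 4 controls and OSW neither wholly above nor wholly below them. The mirrored pattern held for 41 (14.7%) of those called higher in CL-1. A line falls in neither class more easily with the 4 libraries of OSW than with the 2 of CL-1. These counts are therefore not on an equal footing. In 125 and 133 genes the lines lay on opposite sides of the control range. No called gene had both lines inside it. These shares were not tested, and the lymph nodes hold several cell types in addition to T cells.

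**Figure D5:**
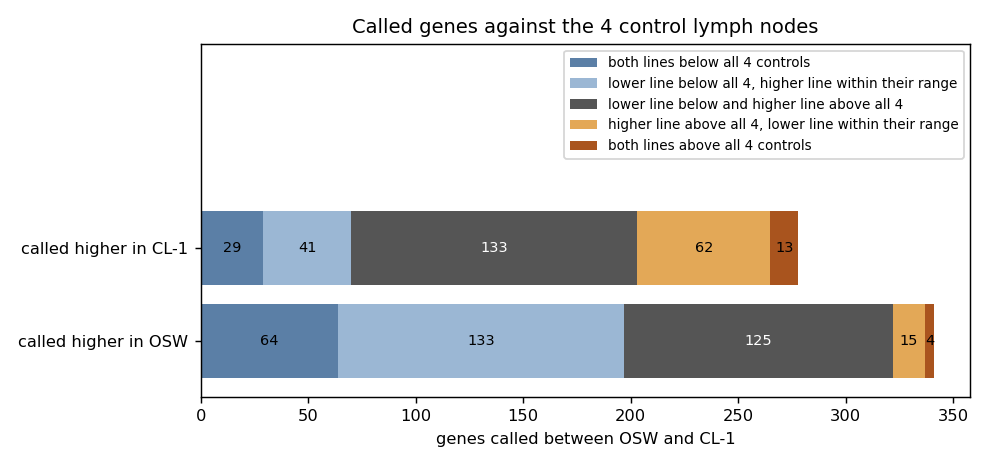
Number of genes called between OSW and CL-1 by where the lines stand against the range of CPM in the 4 control lymph nodes, with 1 bar for the 278 genes higher in CL-1 and 1 for the 341 higher in OSW. The light blue part holds 133 of the genes higher in OSW and 41 of those higher in CL-1. There the lower line is below all controls and the higher line is neither wholly above nor wholly below them.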

How the data were processed

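Counts per gene of 37 canine samples were used, of which the comparison concerned 4 OSW and 2 CL-1 samples, grouped by title. Per the labels and the study's methods, the authors sequenced poly-A RNA as 100-bp paired-end reads (bcl2fastq 2.15.0.4), mapped them to CanFam3.1 with BWA, dropped duplicate and poorly mapped reads (Picard, SAMtools), and counted reads on Ensembl genes with HTSeq 0.6.1. The deposited values are raw counts, not normalized, without a stated strand setting, so overlapping or antisense genes and near-identical copies, MHC genes among them, may share reads.

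All 32704 identifiers were read, and genes whose highest CPM lay above the 40th percentile (15162) were kept. A quasi-likelihood model in edgeR 4.0.16 (R 4.3.3) with TMM normalization and 8 groups was fitted to all 37 samples, and p-values were adjusted by Benjamini-Hochberg over all genes, with a threshold of 1e-05. The SE of a log2 fold change is its size over the root of the F statistic. Where a line had 1 to 3 counts in all, the ratio of summed counts is given with an exact 95% interval, and where it had none a bound against 3 counts per library. Intervals and floors cover counting error only, since reads are not independent molecules. The procedure was tested on simulated counts in which 200 genes were given a log2 change of 3 in size. Of these, 51% passed at 1e-05 and 88% at 0.05, so that a gene that was not called can still differ. Among unchanged genes, 0 passed at 1e-05 and 8 at 0.05. Alternatives changed the tool (DESeq2 1.42.0), size factors, filter, threshold, samples fitted, replicate block and single libraries.

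Named genes were the 12 largest called changes in each direction with at least 50 CPM (of which the first 2 that no readable list holds are printed) and called members of the study's lists, to which uncalled members and genes the study names were added after their values were seen. Which lists and members to describe was chosen with earlier results of these data known. Symbols were not paired with identifiers (0 matched the RefSeq table), so marker lists by symbol were not used, and no sequence is shown. Replicate numbers did not pair the samples.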

Additional observations from a re-analysis of the deposited data

Results flagged for a closer look

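Of the 85 genes followed by identifier, 8 had 1 OSW library farther from the other 3 than Dixon's limit for 4 samples allows. That limit is passed by chance in about 1 group in 20 of continuous values, a rate that does not apply to 7 of these genes, in which 1 library held 1 or 2 reads and the other OSW libraries none. These were ENSCAFG00000012876 of the B-cell receptor list (0.317 CPM in OSW 1), ENSCAFG00000012439 of the chemotaxis list (0.317 CPM in OSW 1), ENSCAFG00000001675 of the cell cycle list (0.317 CPM in OSW 1), the long non-coding RNA ENSCAFG00000040955 (0.356 CPM in OSW 2) and, among the largest changes, ENSCAFG00000009564 (0.317 CPM in OSW 4), ENSCAFG00000016731 (0.635 CPM in OSW 1) and ENSCAFG00000010290 (0.678 CPM in OSW 3). ENSCAFG00000012876 was not called, with 1, 0, 0 and 0 counts in OSW and 30 and 31 in CL-1 (adjusted p-value 0.00098 in edgeR). ENSCAFG00000007614, of DNA replication initiation, had 8.56 CPM in OSW 4 and up to 14.2 CPM in the other OSW libraries, all far under the CL-1 mean of 119 CPM.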

How the results depend on the processing

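Each choice was changed alone, although the fits of 17 and of 6 samples tested 14813 and 14441 genes in place of 15162, since genes without a count in the samples fitted dropped out. The counts of genes higher in OSW and in CL-1 (341 and 278, 619 in all) stayed within 1.5 times with RLE size factors, without a filter on low counts, with edgeR's filterByExpr and with a minimum log2 fold change of 1. They were 816 and 495 (1311 in all) by DESeq2's Wald test, 1200 and 837 (2037) when the 17 cell line samples were fitted alone, 1339 and 996 (2335) when the 6 samples were, and 2593 and 2082 (4675) at an adjusted p-value of 0.05. The share of calls higher in OSW was 55.1% in the main analysis and 62.2% by DESeq2. With 1 library left out, 194 to 476 genes were called, 67 to 292 higher in OSW and 127 to 189 in CL-1. The lowest counts came from leaving out CL-1 1 (215, of which 78 and 137) or CL-1 2 (194, of which 67 and 127), where the remaining CL-1 library was assumed to vary like the other groups, and there 36.3 and 34.5% of the calls were higher in OSW. The cause was not tested for any of these, beyond the smaller number of samples.

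The OSW and CL-1 samples share the replicate numbers 1 and 2, but deviations of same-numbered samples from their line's mean were correlated at -0.15 and -0.12 across genes, and the numbers were taken as names only. With the replicate block, 379 genes were called, 213 higher in OSW and 166 in CL-1.

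Genes present in OSW and absent from CL-1 numbered 256 in place of 432 at a minimum of 30 counts, and those present in CL-1 and absent from OSW 62 in place of 136. With 1 count allowed in the line without the gene, the latter were 249. Of the 57 called genes followed by identifier, 31 were called with every library left out in turn and 26 were not with at least 1 left out (adjusted p-values up to 0.00141), all with the same direction. Of the 28 uncalled ones, 3 changed sign: the log2 fold change of ENSCAFG00000000896 ran from -0.83 to 3.13 with a library left out, that of SHCBP1 (ENSCAFG00000003704) from -0.12 to 0.0501, and that of the miRNA gene ENSCAFG00000026726 from -0.20 to 0.0025. Among the same 28 genes, 12 passed when the 6 samples were fitted alone, 11 when the 17 cell line samples were, and 4 by DESeq2. Not passing thus depended on the samples fitted and on the tool. The MHC class II count was 7 of 9 under all alternatives but the fits of 17 and of 6 samples and the threshold of 0.05, which called 8. DESeq2 did not call 3 of the called genes followed and gave 1 no adjusted p-value. At this depth a gene under 0.93 CPM is not visible in any of the 6 libraries.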
